A study of Mus musculus with 10 samples.

Results

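Chemokines are small secreted or membrane-bound proteins that steer leukocytes along gradients, and integrins are paired alpha and beta subunits through which cells hold on to matrix and to each other. A leukocyte entering the kidney meets both in turn, because a chemokine bound to its G-protein-coupled receptor switches the leukocyte's integrins to their adhesive state. Many integrins of the kidney serve another purpose and anchor tubule cells, podocytes and mesangial cells to their basement membranes. The genes described here are those whose symbol is Ccl, Cxcl, Ccr or Cxcr with a number, *Cx3cl1*, *Cx3cr1*, an Ackr gene, or Itga or Itgb followed only by a number or by e, l, m, v or x. The table of values held 37 such genes of its 13837, of which 20 belonged to the chemokine system (15 ligands, 4 receptors and 1 atypical receptor) and 17 were integrin subunits.

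RNA came from whole kidneys of 3-month-old mice, 5 *Rragc* +/+ and 5 *Rragc* S74N/+. The S74N/+ mice carried the S74N substitution of RagC on 1 allele in every tissue, from a germline knock-in made by CRISPR editing, and the labels name no other allele and no treatment. RagC is a GTPase that brings mTORC1 to the lysosome when nutrients are present, and S74N holds it in an active, GDP-like form. The question put to the data was whether genes that recruit and anchor leukocytes were already different in the young mutant kidney, with chemokines and integrins taken apart.

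Each library was read from the 3′ end of its transcripts, so that a normalized count (reads divided by the library's size factor) does not grow with transcript length and levels of different genes can be set beside each other on that scale. Between 6501552 and 7996087 reads on genes were recovered per mouse, and 1 read was worth 0.8893 to 1.134 normalized counts. The kidney's defining transcripts were present in every mouse, with all 9 epithelial markers in the table, led by the proximal tubule phosphate transporter *Slc34a1*. *Rragc* itself stood at 285 ± 42.3 normalized counts in +/+ and 216 ± 23.6 in S74N/+ mice (SD, n = 5 each), a difference that did not pass the test (limma adjusted p = 0.0678), and the substitution cannot be read from counts. Markers of other cells were uneven in replicate 5 of S74N/+, which had the highest sum of the 10 mice for the macrophage list (9 of 10 markers in the table), the T and NK cell list (3 of 10), the B and plasma cell list (3 of 8), the dendritic list (5 of 7) and the fibroblast and mural list (6 of 6). Of these lists, only the B and plasma cell list had every marker in the table highest in that mouse. For B and plasma cells that mouse reached 5424 normalized counts, against 451 to 1346 in +/+ and 1108 to 2202 in the other S74N/+ mice. For some genes the values are also given without this mouse. A value given only with all mice can still depend on it. In the neutrophil list (2 of 9 markers in the table) another mouse stood out, replicate 1 of S74N/+, with 290.3 normalized counts against 22.4 to 91.6 in +/+ and 23.2 to 68.3 in the other S74N/+ mice.

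The promoters of 4 ligands are shown, of which only *Ccl19* passed the test described below. *Ccl19* and *Ccl21a* are lymphoid-tissue chemokines that share the receptor Ccr7 and lie next to each other on chromosome 4. *Cxcl9* and *Cxcl10* are interferon-induced ligands of Cxcr3 and neighbours on chromosome 5. Like *Ccl21a*, they did not pass the test. Each line gives 250 bases before to 50 bases after the start of transcription in RefSeq on GRCm38.p6, in the direction of transcription (minus strand for all 4), an older build than the one behind the values. Capitals mark matches, on either strand, to the kB pattern GGGNNNNNCC, the interferon pattern GAAANNGAAA (the core of an ISRE), the GAS pattern TTCNNNGAA and the TATAAA box. 
Ccl19 (chr4:42756316-42756615): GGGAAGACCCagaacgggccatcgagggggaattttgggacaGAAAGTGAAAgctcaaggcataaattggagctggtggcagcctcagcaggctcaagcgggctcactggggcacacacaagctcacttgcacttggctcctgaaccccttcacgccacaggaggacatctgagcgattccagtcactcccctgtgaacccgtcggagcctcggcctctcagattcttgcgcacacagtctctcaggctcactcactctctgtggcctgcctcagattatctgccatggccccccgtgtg
Ccl21a (chr4:42773942-42774241): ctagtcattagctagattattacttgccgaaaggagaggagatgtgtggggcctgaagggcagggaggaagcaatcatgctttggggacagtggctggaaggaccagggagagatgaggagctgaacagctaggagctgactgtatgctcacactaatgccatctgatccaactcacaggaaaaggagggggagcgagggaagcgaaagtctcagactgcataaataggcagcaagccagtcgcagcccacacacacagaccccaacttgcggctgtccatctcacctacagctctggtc
Cxcl9 (chr5:92328030-92328329): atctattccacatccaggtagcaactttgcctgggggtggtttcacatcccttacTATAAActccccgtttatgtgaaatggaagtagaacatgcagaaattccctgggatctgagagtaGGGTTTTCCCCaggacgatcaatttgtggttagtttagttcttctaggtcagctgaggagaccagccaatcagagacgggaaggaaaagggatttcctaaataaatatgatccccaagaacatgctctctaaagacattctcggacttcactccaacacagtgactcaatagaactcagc
Cxcl10 (chr5:92348840-92349139): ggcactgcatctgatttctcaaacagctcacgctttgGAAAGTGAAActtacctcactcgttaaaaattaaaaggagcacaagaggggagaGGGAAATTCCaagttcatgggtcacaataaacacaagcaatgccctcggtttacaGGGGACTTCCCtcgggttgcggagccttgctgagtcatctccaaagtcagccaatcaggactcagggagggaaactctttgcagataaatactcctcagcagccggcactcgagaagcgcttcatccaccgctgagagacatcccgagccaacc

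The *Ccl19* window held 1 kB match (GGGAAGACCC) and 1 match to the ISRE core (GAAAGTGAAA). The *Cxcl10* window held the identical 10 letters GAAAGTGAAA and 3 kB matches, GGGAAATTCC and the overlapping GGGGACTTCC and GGGACTTCCC. The *Cxcl9* window held 2 overlapping kB matches and 1 TATAAA, whereas no searched letters were found in the *Ccl21a* window. Among 32544 promoter windows of this length, 51.0% held the kB pattern, 3.45% the ISRE core, 8.33% the GAS pattern and 13.6% the TATAAA box, so that a kB match as loose as this one is common. Windows existed for 28 of the 37 genes, and the ISRE core was found in 4 of them. These matches are descriptions of letters and not of binding.

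Of the 37 genes, 34 reached the level required for testing (at least 10 normalized counts in at least 5 mice), 18 from the chemokine system and 16 integrins. The ligands *Ccl9* (1.07 to 18.3 normalized counts over the mice) and *Cxcl11* (5.34 to 15.2) and the integrin *Itgb7* (4.65 to 18.9) were too low. Levels spanned more than 2 orders of magnitude on the normalized count scale. The collagen-binding subunit *Itga1* was the most abundant, with a mean of 1113 over the 10 mice, followed by the stromal chemokine *Cxcl12* (902.0), *Itgav* (599.0), *Itgb1* (554.0) and *Itga6* (530.1). At the other end stood *Ccl9* (8.00), *Cxcl11* (8.64) and the leukocyte subunits *Itgb7* (10.4), *Itgal* (11.2), *Itgb2* (12.4), *Itgax* (13.9) and *Itga4* (16.9). The other integrin subunits ranged from *Itga8* (20.1) and *Itgb4* (25.3), close to the leukocyte subunits, up to *Itga1*.

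**Figure D1:**
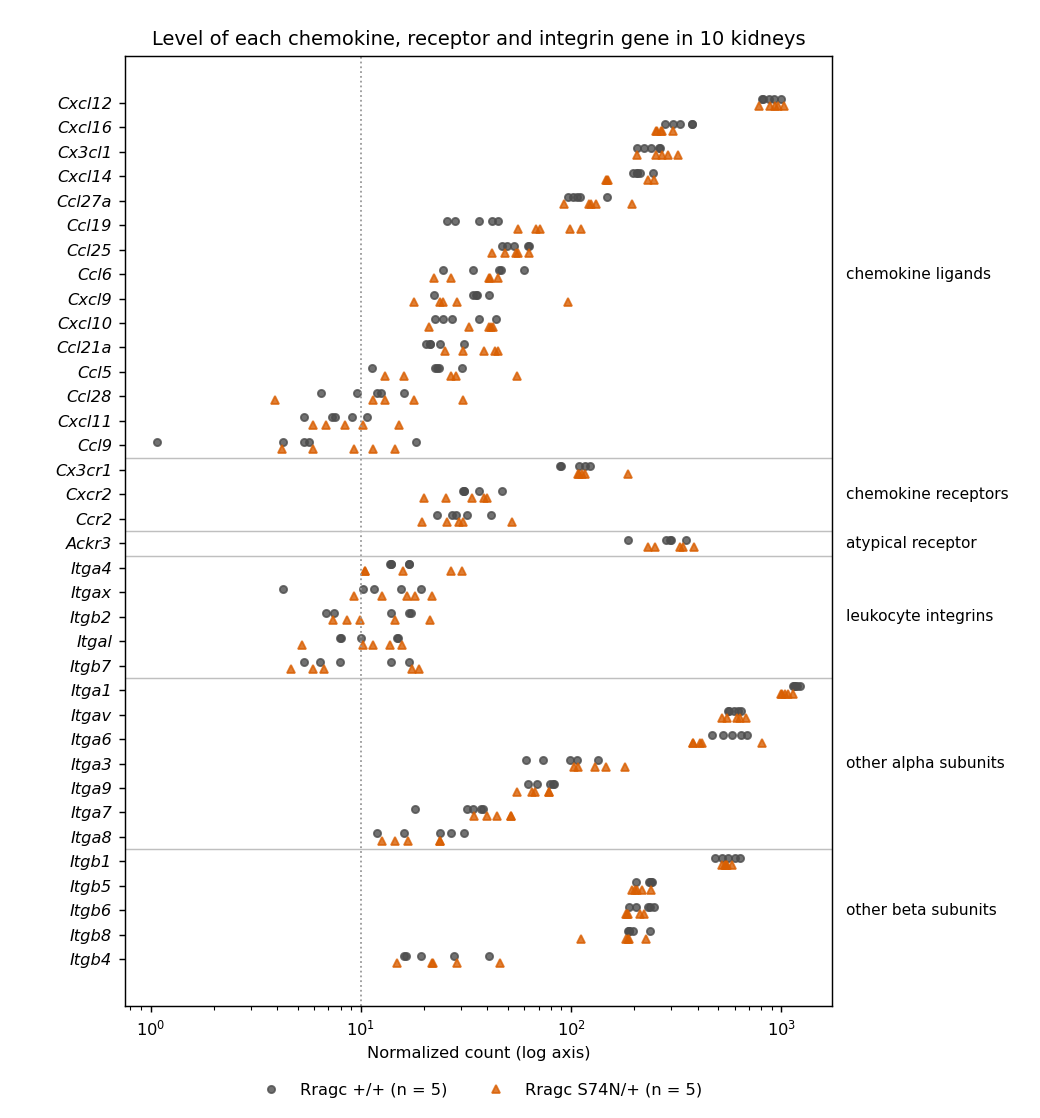
Normalized count (log axis) of 36 genes in each of the 10 kidneys, +/+ as grey circles and S74N/+ as orange triangles, grouped by role and sorted by mean. The dotted line marks 10 normalized counts, and the 5 leukocyte integrins lie around it while Itga1, with a mean of 1113, lies highest. The genotypes are set apart in Ccl19.

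Over all 13197 genes tested, 487 passed an adjusted p of 0.05 (percent called, 3.69). Of the 18 chemokine-system genes tested, 1 passed, *Ccl19*, which was higher in S74N/+ mice. Of the 16 integrins tested, 0 passed with limma, edgeR or DESeq2, and 3 of them had an unadjusted p under 0.05. Without replicate 5 of S74N/+, 1 integrin passed, *Itga6*, and it was lower. At an unadjusted p under 0.05 stood 4 chemokine-system genes and those 3 integrins, where 15.4% of all genes tested did. No overlap between genotypes was seen in 1 chemokine-system gene, *Ccl19*, and in 1 integrin, *Itga1*, against 5.0% of all genes tested.

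The median log2 fold change was 0.14 over the 18 chemokine-system genes and -0.02 over the 16 integrins, beside 0.00 over all genes tested. Of the chemokine-system genes 11 were above 0 and 7 below, and of the integrins 6 were above and 10 below. The chemokine median was 0.05 without replicate 5 of S74N/+ and 0.02 without replicate 3 of +/+, so single mice set its size. The integrin median was -0.12 without either of those mice. Neither class moved as a block, and the account below is of single genes.

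**Figure D2:**
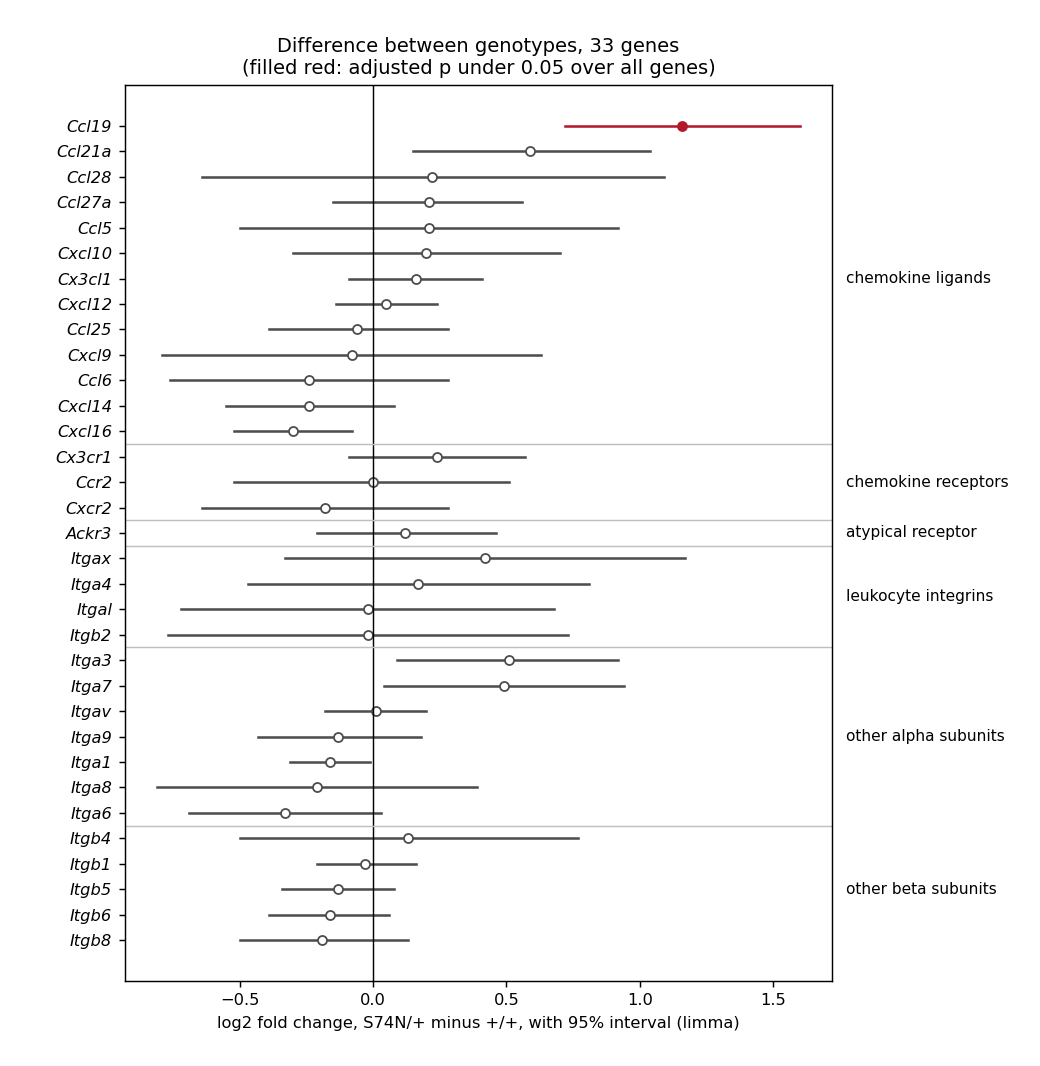
log2 fold change (S74N/+ minus +/+, log2(normalized count + 1) scale) with its 95% interval for 33 of the genes tested, grouped by role. Ccl19, at 1.16, is the filled red point, the one gene with an adjusted p under 0.05, and the intervals are widest among low genes such as Ccl28 and the leukocyte integrins.

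*Ccl19*, the chemokine by which stromal cells of lymphoid tissue draw in dendritic cells and naive T cells, was 2.24-fold higher in S74N/+ kidneys. Its normalized counts were 36.5, 25.8, 42.0, 27.9 and 44.8 in the +/+ mice and 71.1, 55.7, 68.3, 112 and 99.3 in the S74N/+ mice, in order of replicate. Every S74N/+ mouse was above every +/+ mouse. The means were 35.4 ± 8.40 and 81.2 ± 23.3 (SD, n = 5 each), resting on 26 to 113 reads per mouse. The log2 fold change was 1.16 (SE 0.21, lower and upper 95% bounds 0.72 and 1.6, limma adjusted p = 0.0028). The exact two-sided permutation test gave p = 0.00794, the smallest that 5 mice against 5 allow. Any gene without overlap takes that value, so it adds nothing to the lack of overlap. It passed in all 22 alternative settings, at 1.04 to 1.28. Library codes fall into a first and a second run of numbers that are not balanced between genotypes. The labels do not say what these runs are. The second includes replicate 5 of S74N/+, whose code ends in 66, apart from 53 to 58 in the others. Within the second run alone (3 +/+ and 4 S74N/+ mice) the log2 difference was 1.09 (adjusted p = 0.0433 with limma). Without replicate 5 of S74N/+ it was 1.08 (limma adjusted p = 0.00732).

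*Ccl21a*, the other Ccr7 ligand of lymphoid stroma and lymphatic vessels, was above the +/+ mean in all 5 S74N/+ mice but did not pass the test. Its normalized counts were 31.0, 21.3, 23.8, 21.4 and 20.3 in +/+ and 43.6, 25.1, 30.5, 38.5 and 44.8 in S74N/+ mice. Replicate 1 of +/+ lay among the S74N/+ values, so that the groups overlapped and 3 S74N/+ mice exceeded every +/+ mouse. The log2 fold change was 0.59 (SE 0.21, 95% interval 0.15 to 1.04, limma adjusted p = 0.157). In the 21 alternatives that could be fitted it ranged from 0.51 to 0.72 and never passed. The gene of the shared receptor, *Ccr7*, was not analysed here.

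Both genes lie in a stretch of chromosome 4 that holds many copies of *Ccl19*, *Ccl21* and *Ccl27* genes, and the assignment of their reads is uncertain for that reason. On the GENCODE vM21 annotation of GRCm38, 64.0% of the words of 50 bases in the last 300 bases of *Ccl19* transcripts also occurred in transcripts of other genes (4 of them), as did 56.6% for *Ccl21a* (2 other genes) and 56.8% for *Ccl27a* (5 other genes). In *Itga1* none did, and 29 of the 37 genes shared no word. The aligner was set to report several hits, and how the counting treated such reads was not tested.

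The neighbours were looked at after these values had been seen. In the gene order of RefSeq on GRCm38.p6, 48 entries run from *Ccl27a* to *Ccl21a*, of which 4 are in the table of values, and 5 further copies of these chemokine genes among them were not analysed here. *Ccl27a*, a ligand known from skin, did not pass (log2 difference 0.21, adjusted p = 0.633 with limma). *Gm21104*, a transcribed pseudogene of that stretch in RefSeq, was 48.9 ± 14.8 normalized counts in +/+ and 95.2 ± 20.3 in S74N/+ mice (SD, n = 5 each). Its log2 difference was 0.98 (SE 0.21, adjusted p = 0.0115 with limma). No transcript of *Gm21104* was in the annotation searched for shared words, so words shared with those copies were not assessed. The *Gm21104* groups did not overlap, and it passed in 20 of 22 alternatives, but not without the variance trend or in the second run of codes alone. Of the 14 genes tested on both sides, 7 before and 7 after, 0 passed with limma, edgeR or DESeq2 and 0 had an unadjusted p under 0.05. Their log2 fold changes ran from -0.15 to 0.26 and the smallest adjusted p was 0.41. *Rragc*, the edited gene, is on chromosome 4 as well. The number of copies of this stretch carried by each mouse was not tested.

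**Figure D3:**
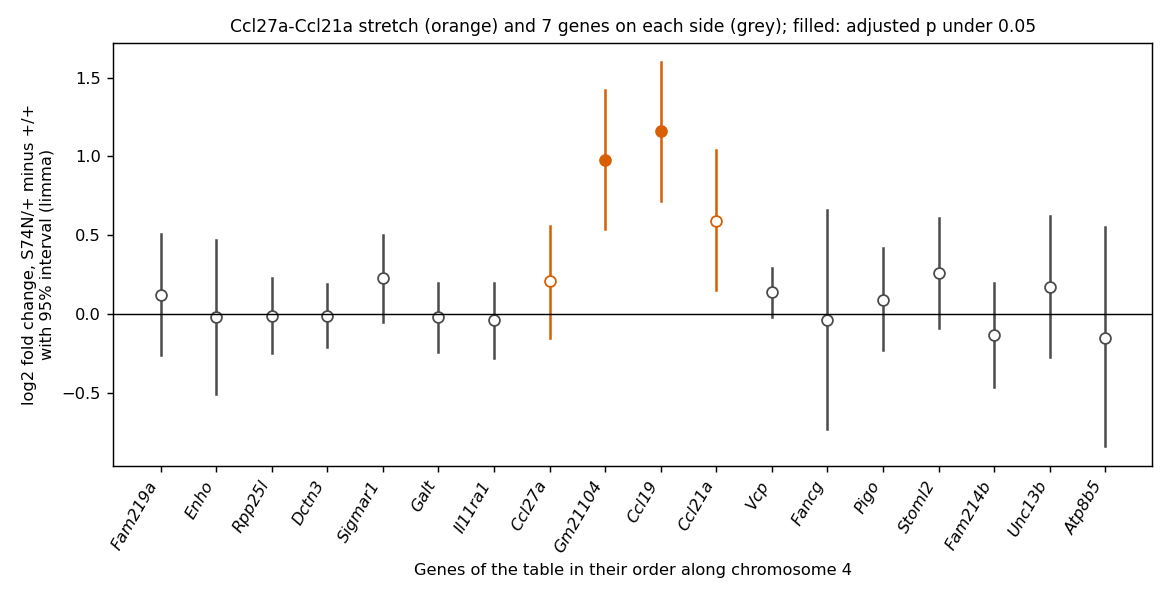
log2 fold change (S74N/+ minus +/+) with its 95% interval for the genes of the table in their order along chromosome 4, the stretch from Ccl27a to Ccl21a in orange and 7 genes on each side in grey. Filled points passed an adjusted p of 0.05, which were Gm21104 (0.98) and Ccl19 (1.16), while the 14 grey genes lie between -0.15 and 0.26.

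Markers of the cells that make or follow these ligands were read beside them. Of 6 markers of lymphatic vessels and lymphoid stroma, 4 were in the table, and their sum was 267 to 298 normalized counts in +/+ and 200.1 to 293 in S74N/+ mice. Within it *Prox1*, listed as a lymphatic marker, was lower in S74N/+ mice (log2 fold change -0.70, limma adjusted p = 0.0455), a call kept in 9 of 22 alternatives. Which kidney cells the *Prox1* reads came from was not tested. *Cr2*, found on follicular dendritic cells and B cells, was 21.4 ± 9.95 in +/+ and 38.4 ± 5.37 normalized counts in S74N/+ mice (SD, n = 5 each), a log2 difference of 0.92 that did not pass (adjusted p = 0.0716 with limma). The antibody light chain *Igkc*, a plasma cell product, was higher in S74N/+ mice (log2 fold change 1.30, limma adjusted p = 0.039), a call kept in 11 of 22 alternatives. Their part in the *Ccl19* result was not tested. In whole tissue, more cells of a type and more RNA per cell cannot be told apart.

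*Cxcl16*, a membrane-bound ligand of Cxcr6 that also acts as a scavenger receptor, was the ligand with the smallest p among those at lower values in S74N/+ mice, and it did not pass. Its normalized counts were 377, 378, 307, 329 and 279.7 in +/+ and 255, 253, 269, 271 and 304 in S74N/+ mice. Of the S74N/+ mice, 4 lay below all +/+ mice, and replicate 5 lay within their range. The log2 fold change was -0.30 (SE 0.10, 95% interval -0.52 to -0.08, limma adjusted p = 0.141). Within the second run of library codes it was -0.16. The 2 +/+ mice of the first run had the highest values of all.

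*Cxcl12*, which retains leukocytes through Cxcr4, was the most abundant ligand and did not pass the test. It measured 997, 928, 869.8, 814 and 819 normalized counts in +/+ and 785, 882, 935, 968 and 1025 in S74N/+ mice. The highest and the lowest mouse were both S74N/+. The log2 fold change was 0.05, with a 95% interval of -0.14 to 0.24. *Ackr3*, the atypical receptor that removes Cxcl12 without G-protein signalling, measured 351, 297, 186, 299 and 284 in +/+ and 385, 341, 250.1, 233 and 331 in S74N/+ mice. Its log2 fold change was 0.12 (95% interval -0.21 to 0.46), and -0.02 without replicate 3 of +/+.

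*Cx3cl1* (fractalkine), a membrane-tethered ligand displayed by tubule and endothelial cells, had means of 239 ± 25.5 and 268 ± 42.7 normalized counts (SD, n = 5 each) and a log2 fold change of 0.16 (95% interval -0.09 to 0.41). *Cxcl14*, an epithelial chemokine, was at 146, 150.3 and 148 in 3 S74N/+ mice, below all +/+ mice (196 to 246), and higher in the other two, of which replicate 2 had 231. Its groups thus overlapped, and the log2 difference was -0.24 (adjusted p = 0.503 with limma). *Ccl25*, a ligand known from thymus and gut, ran from 47.0 to 63.2 normalized counts in +/+ and from 42.0 to 63.3 in S74N/+ mice, without separation. *Ccl6*, a myeloid chemokine of mice, had 42.1 ± 13.3 and 35.1 ± 9.94 (SD, n = 5 each), and *Ccl28*, a mucosal ligand, 11.3 ± 3.55 and 15.4 ± 9.91. For *Ccl28* the log2 fold change was 0.22, and it was 0.60 without replicate 5 and -0.07 without replicate 4 of S74N/+. None of these 5 ligands passed.

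The interferon-induced and T cell ligands did not pass the test, and in 2 of them replicate 5 of S74N/+ stood apart. *Cxcl9* is given by mouse for that reason, after its values were seen. *Cxcl9* was 35.6, 22.2, 40.8, 34.3 and 35.2 normalized counts in +/+ and 23.7, 28.8, 17.9, 24.7 and 96.3 in S74N/+ mice. With that mouse the log2 fold change was -0.08 (95% interval -0.79 to 0.63), and without it -0.48 (limma adjusted p = 0.353). *Ccl5*, made by T and NK cells, was 55.5 in the same mouse and 13.0 to 28.4 in the other S74N/+ mice, with 11.3 to 30.1 in +/+. Its log2 fold change was 0.21 with that mouse and -0.08 without it. *Cxcl10*, in contrast, was 40.9 there, within the 22.5 to 43.8 of the +/+ mice, and its log2 fold change was 0.20 (95% interval -0.30 to 0.70). The T and NK cell marker sum was 89.5 in replicate 5 of S74N/+ against 48.0 to 67.5 in +/+. Of the 3 markers summed, only *Lck* was highest in that mouse, at 31.1 normalized counts. There *Trac* (42.8) and *Cd8a* (15.6) lay within the +/+ ranges of 26.5 to 46.5 and 2.27 to 18.2. The part of T and NK cells in the ligand values was not tested.

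Among the conventional receptors, the macrophage receptor *Cx3cr1* was the most abundant. Its normalized counts were 117, 123, 109, 90.0 and 88.6 in +/+ and 117, 109.6, 113, 108 and 186 in S74N/+ mice. Apart from replicate 5 the S74N/+ mice lay inside the +/+ range, and the log2 fold change was 0.24 with that mouse and 0.10 without it, neither passing.

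*Ccr2*, which brings monocytes out of bone marrow and into tissue, had means of 30.5 ± 7.08 in +/+ and 31.5 ± 12.5 normalized counts in S74N/+ mice (SD, n = 5 each), with 52.5 in replicate 5 and 19.5 to 30.6 in the other S74N/+ mice. Without replicate 5 its log2 fold change was -0.20 (limma adjusted p = 0.772). *Cxcr2*, the neutrophil receptor, had means of 35.2 ± 6.99 and 31.5 ± 8.63 (SD, n = 5 each), and here replicate 5 was low at 25.3. It was lowest, at 19.9, in replicate 1 of S74N/+, the mouse with the highest neutrophil marker sum. For *Cxcr2* the log2 fold change was -0.18, and -0.04 without that mouse. Replicate 5 of S74N/+ was the highest of the 10 mice in 8 of all 20 chemokine-system genes and in 5 of the 17 integrins. Its macrophage marker sum was 2002, against 1409 to 1896 in +/+ and 1536 to 1935 in the other S74N/+ mice. Markers of that list went both ways in replicate 5. It was highest of the 10 mice in *Lyz2* (507 normalized counts) and lowest in *Csf1r* (774). The part of these cells in the receptor values was not tested.

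**Figure D4:**
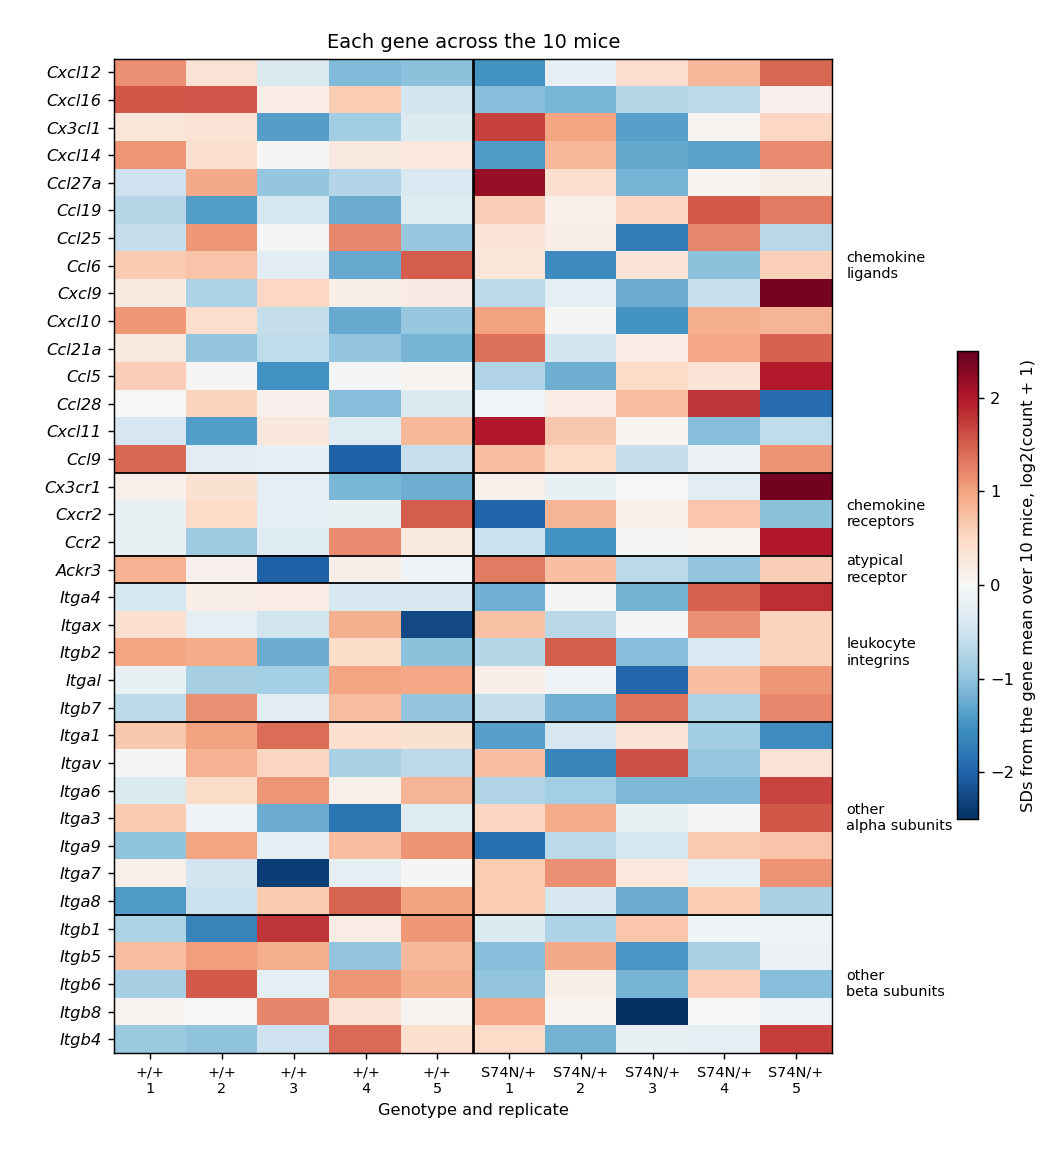
Each of 36 genes across the 10 mice, as SDs from the gene's mean of log2(normalized count + 1) over all mice (red above, blue below), with genotype and replicate on the horizontal axis and genes grouped by role. Replicate 5 of S74N/+ is the darkest red column for Cxcl9, Ccl5, Cx3cr1 and Ccr2, and is the highest mouse in 8 of 20 chemokine-system genes.

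The integrins of leukocytes were near the limit of measurement. *Itga4*, which binds Vcam1, was 13.7, 16.9, 17.0, 13.9 and 13.9 normalized counts in +/+ and 10.4, 15.8, 10.5, 26.7 and 30.2 in S74N/+ mice. The S74N/+ mice lay on both sides of the +/+ range, with a log2 fold change of 0.17 (95% interval -0.47 to 0.81), and of -0.03 without replicate 5. *Itgax* (CD11c), of dendritic cells and macrophages, was 15.5, 11.6, 10.2, 19.3 and 4.27 in +/+ and 18.0, 9.29, 12.6, 21.7 and 16.5 in S74N/+ mice, with a log2 fold change of 0.42 (95% interval -0.33 to 1.17) that was 0.12 without replicate 5 of +/+, the lowest mouse. *Itgal* and *Itgb2*, the pair that makes the Icam1-binding integrin LFA-1, each had a log2 fold change of -0.02, with 95% intervals of -0.72 to 0.68 and -0.77 to 0.73. With intervals this wide, a moderate difference in either direction was not detectable at this depth. *Itgam* and *Itgae* were not analysed here.

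Integrin subunits of kidney cells showed small differences in both directions. *Itga1*, the collagen-binding partner of *Itgb1* on mesangial and endothelial cells, lay below every +/+ mouse in all 5 S74N/+ mice, by a small margin. Its normalized counts were 1164, 1192, 1226, 1144 and 1140.3 in +/+ and 1008, 1078, 1137, 1044 and 993 in S74N/+ mice. The highest S74N/+ mouse, replicate 3, was just under the lowest +/+ mouse. The log2 fold change of -0.16 (SE 0.07, 95% interval -0.31 to -0.01) did not pass (limma adjusted p = 0.302). The exact two-sided permutation test gave p = 0.00794, the value that any gene without overlap takes. It therefore adds nothing to the lack of overlap, which 5.0% of all genes tested shared. The endothelial markers, 7 of 7 in the table, summed to 2383 to 2724 in +/+ and 1844 to 2602 normalized counts in S74N/+ mice, and their part in this value was not tested.

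The laminin-binding alpha subunits went different ways, and none of them passed with all mice. *Itga3*, the main integrin of podocytes, was 135, 107, 73.7, 61.1 and 99.3 normalized counts in +/+ and 129.9, 147, 103, 108 and 180 in S74N/+ mice, so that 2 S74N/+ mice exceeded all +/+ mice. Its log2 fold change was 0.51 (SE 0.20, 95% interval 0.09 to 0.92, limma adjusted p = 0.201) and was 0.77 in the second run of library codes alone (limma adjusted p = 0.0859). The podocyte marker *Nphs1* had a log2 fold change of -0.24 and did not pass. *Itga7*, of smooth and skeletal muscle, was 38.3, 32.0, 18.1, 34.3 and 37.4 in +/+ and 44.6, 52.0, 39.9, 34.6 and 51.6 in S74N/+ mice. Of these, 4 S74N/+ mice were above all +/+ mice, and the log2 fold change was 0.49 (SE 0.21, 95% interval 0.04 to 0.94, limma adjusted p = 0.266). Without replicate 3 of +/+, the lowest mouse at 18.1, it was 0.31 (limma adjusted p = 0.489).

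*Itga6*, the laminin-binding subunit of tubule epithelium, was below every +/+ mouse in 4 S74N/+ mice and highest of all in the fifth, and it is described by mouse for that reason, chosen after its values were seen. Its normalized counts were 466, 581, 687, 529.5 and 644 in +/+ and 419, 409.8, 379, 379.5 and 807 in S74N/+ mice. With all mice the log2 fold change was -0.33 (SE 0.17, 95% interval -0.69 to 0.03, limma adjusted p = 0.38). Without replicate 5 of S74N/+ it was -0.54 and passed (limma adjusted p = 0.00732), and no other alternative gave a call. Of its words of 50 bases at the 3′ end, 11.5% occurred in other genes. Its beta partner *Itgb4* measured 24.0 ± 10.5 and 26.6 ± 11.7 normalized counts (SD, n = 5 each) and was likewise highest in replicate 5, at 45.7, with a log2 fold change of 0.13 with that mouse and -0.08 without it. Of the 9 epithelial markers, 2 passed, both lower in S74N/+ mice, *Umod* of the thick ascending limb (log2 change -1.0, limma adjusted p = 0.000198) and *Slc12a3* of the distal convoluted tubule (-1.20, limma adjusted p = 2.6e-07). *Slc12a1*, of the same segment as *Umod*, had -0.22 (limma adjusted p = 0.438) and *Aqp2* of the collecting duct 0.54 (limma adjusted p = 0.0887). Their part in the *Itga6* values was not tested.

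**Figure D5:**
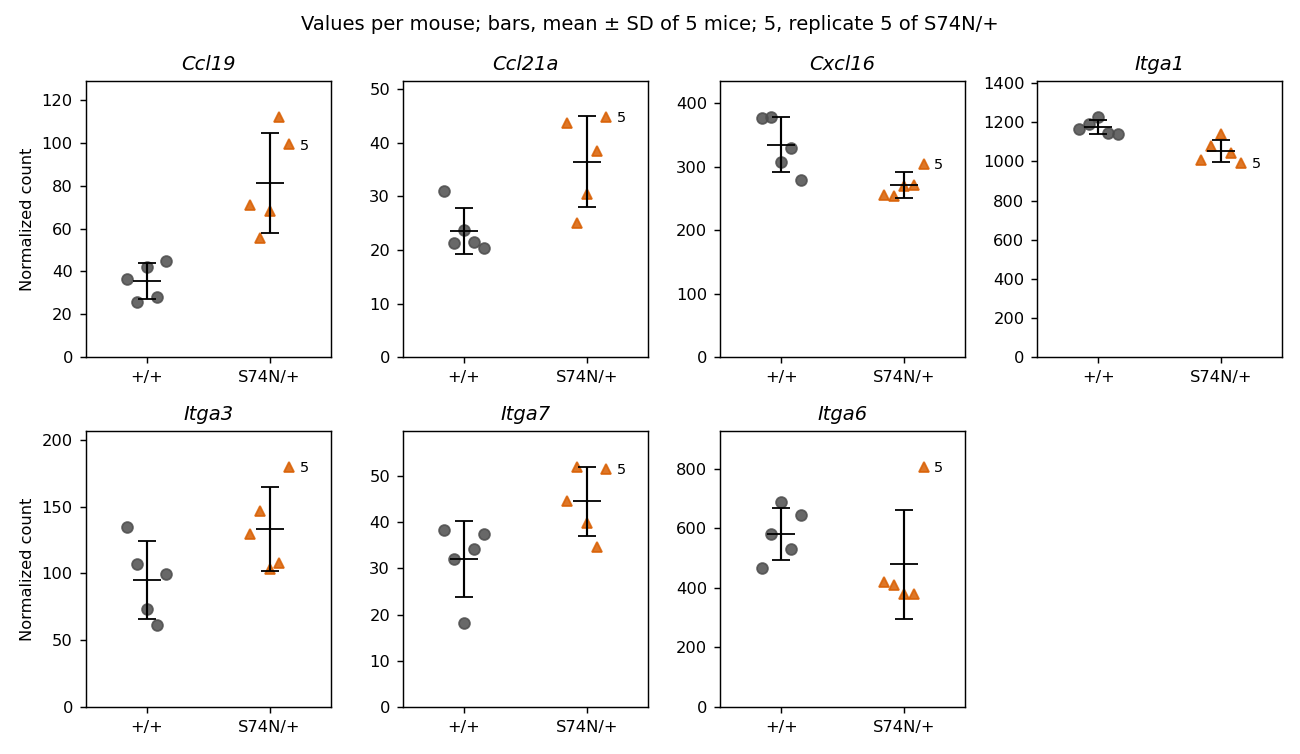
Normalized counts per mouse of 7 genes, +/+ as grey circles and S74N/+ as orange triangles, with the mean and SD of 5 mice as bars and replicate 5 of S74N/+ marked. Ccl19 and Itga1 show no overlap between genotypes, and the marked mouse lies highest in Ccl21a, Itga3 and Itga6.

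*Itgav* and its partners had differences near 0 or slightly below it. *Itgav* measured 594, 641, 624, 557 and 565 normalized counts in +/+ and 636, 520.3, 682, 552 and 615 in S74N/+ mice, a log2 fold change of 0.01 (95% interval -0.18 to 0.20). *Itgb1*, the partner of most alpha subunits, measured 520.3, 486, 634, 561 and 601 in +/+ and 539, 521, 583, 549 and 548 in S74N/+ mice, a log2 fold change of -0.03 (95% interval -0.21 to 0.16). *Itgb5*, a vitronectin receptor subunit, measured 236, 242, 239, 203 and 237 in +/+ and 201, 239.7, 194, 206 and 218 in S74N/+ mice. Its log2 fold change was -0.13. *Itgb6* and *Itgb8*, whose integrins release active TGF-beta from its latent complex, had log2 fold changes of -0.16 and -0.19, and none of these 3 passed. *Itga9* (-0.13) and the nephronectin receptor *Itga8* (-0.21) did not pass.

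The partners of these genes were read from lists of ligands, inducers and signalling genes, in which 90 genes were tested and 3 passed (1 higher, 2 lower), beside 3.69% of all genes. None of the 4 other chemokine-family genes, the 15 genes of chemokine receptor signalling, the 12 inducers of chemokines and the 26 integrin adaptors tested passed with limma, edgeR or DESeq2, and 6 of these 57 genes had an unadjusted p under 0.05 with limma. The inducers included the lymphotoxin receptor *Ltbr* (log2 fold change -0.05), *Relb* (0.10) and *Nfkb2* (0.26), of the pathway known to drive *Ccl19* in lymphoid stroma. They also included the interferon mediator *Irf1* (0.10). Among integrin adaptors, talin *Tln1* had a log2 fold change of -0.01 and *Ilk* one of 0.05. The medians of the lists lay between -0.08 and 0.05.

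Of 10 adhesion ligands and selectin-related genes tested, 2 passed, in opposite directions. *Jam3*, a junctional molecule that leukocyte integrins bind, was lower, at 157 ± 14.7 normalized counts in +/+ and 105 ± 15.4 in S74N/+ mice (SD, n = 5 each), which is a log2 difference of -0.59 (SE 0.13, adjusted p = 0.0115 with limma). The call was kept in all 22 alternatives, and the groups did not overlap. *F11r* (JAM-A), the tight-junction ligand of LFA-1, was higher, at 1036 ± 62.4 and 1269 ± 74.4 (SD, n = 5 each), which is a log2 difference of 0.29 (SE 0.08, adjusted p = 0.0418 with limma), kept in 10 of 22 alternatives. The endothelial ligands *Icam1* (0.00) and *Vcam1* (-0.21) did not pass.

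Of 23 matrix ligands tested, 1 passed. *Spp1* (osteopontin), a ligand of Itgav-containing integrins made by distal tubule cells, was lower, at 1129.5 ± 142 normalized counts in +/+ and 789 ± 157 in S74N/+ mice (SD, n = 5 each), which is a log2 difference of -0.53 (SE 0.13, adjusted p = 0.0245 with limma), kept in 15 of 22 alternatives. The laminin chain *Lamb1* (-0.08), the collagen IV chains *Col4a1* (0.01) and *Col4a2* (-0.01) and fibronectin *Fn1* (0.02) had log2 fold changes near 0 and did not pass.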

How the data were processed

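Kidney RNA of 10 mice was sequenced by the authors with QuantSeq 3′ libraries (stranded, oligo-dT primed), aligned to GRCm39 with TopHat2 (multiple hits allowed) and counted per gene with HTSeq on GENCODE vM26. What the authors deposited is a normalized signal, the reads of a gene divided by the library's size factor. Multiplied back, 100% of values were whole reads (tolerance 0.01), and edgeR 4.0.16 on these reads called 480 genes. Each of the 10 columns carried the title of its mouse.

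Values were tested as log2(value + 1) with limma 3.58.1 in R 4.3.3 (trend, two-sided, no covariate) in 13197 genes with at least 10 normalized counts in 5 or more mice. P values were adjusted over all of them (Benjamini-Hochberg) and called under 0.05. Fold changes on this scale understate those of low genes. DESeq2 1.42.0 was another alternative. Single genes were also compared by exact permutation over mice. The fits were tested on simulated data first.

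The genes and lists were chosen with earlier results of these data known. Genes were given with every mouse when they passed, did not overlap, had an unadjusted p under 0.05 or were among the 2 most abundant of their role. Promoters and gene order come from RefSeq on GRCm38.p6, and no coordinates were converted. Replicate numbers follow accession order and pair no mice. A gene covered by the rule is counted but not reported here.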

Additional observations from a re-analysis of the deposited data

Results flagged for a closer look

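Within each genotype, a mouse was marked when its gap to the next mouse exceeded 0.71 of the range of the 5 mice, which chance gives in about 1 of 20 groups. Among 74 groups (37 genes in 2 genotypes), 7 were marked. In S74N/+ mice all 3 were replicate 5 at the top: *Itga6* at 807 normalized counts (ratio 0.907), *Cx3cr1* at 186 (0.886) and *Cxcl9* at 96.3 (0.861). In +/+ mice, *Itgb5* was low in replicate 4 at 203 (0.861), *Itgb8* high in replicate 3 at 237 (0.757), *Ccl27a* high in replicate 2 at 148 (0.735) and *Ccl9* high in replicate 1 at 18.3 (0.732). The causes were not tested.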

How the results depend on the processing

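The call of *Ccl19* held in all 22 alternatives (12 settings and 10 that leave out 1 mouse), and of the other 33 genes tested, 1 passed in any of them, *Itga6* without replicate 5 of S74N/+ (log2 fold change -0.54). The integrin count was therefore 0 to 1 when 1 mouse was left out. Over all genes, 487 calls became 291 without the variance trend, 832 with the run of library codes as a covariate, 648 with DESeq2 and 295 to 466 without 1 mouse, the lowest being without replicate 5 (295) and replicate 4 (310) of +/+. The 3 calls among partner genes became 1 without the trend and in the second run of codes alone, and 1 to 2 without 1 mouse. *Cxcl12* moved to 0.19 in the second run alone, still not passing. The causes were not tested. No paired analysis was possible because the replicate numbers are not from the labels. In 12 genes the sign differed from the reported one in at least 1 alternative without a call, in 6 or more alternatives for *Cxcl9*, *Ccr2*, *Itgal*, *Itgb2* and *Itgav* and in 1 or 2 for *Ackr3*, *Ccl25*, *Ccl28*, *Ccl5*, *Itga4*, *Itgb1* and *Itgb4*. Reads were fewest in the leukocyte integrins, *Ccl28*, *Ccl9* and *Cxcl11*.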
